A study of Mus musculus with 8 samples.

Results

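The MYC, MAX and MXD network was followed here as 8 genes chosen by name: Myc, Max, Mxd1, Mxd4, Mxi1, Mnt, Mga and Mlx. All 8 were present among the 11841 gene symbols of the deposited table, and all 8 were among the 10281 genes tested. The set was picked because Mxd4 lies far lower in the mutant cells than in wild-type cells, so the values of these genes against wild type are given as a description without a test. Differences among the mutants compare no wild-type level, and these were tested, in a fit whose estimate of spread pools all 4 genotypes.

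MYC is a transcription factor that drives growth, ribosome production and nutrient uptake in activated T cells. It binds E-box sequences only as a dimer with MAX. MAX also pairs with the MXD proteins, MNT and MGA, which recruit repressors to the same sequences. The partners of MAX thus compete for it and for its sites. Some MXD proteins are known from resting or differentiating cells. MLX is a relative of MAX that pairs with the glucose-sensing MondoA protein and with some MXD proteins.

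The cells were CD44+ CD4+ T cells, helper T cells that have met antigen, sorted from lymph nodes that drain the skin of BALB/cAJcl mice. All had been stimulated for 2 h with PMA and ionomycin, which activate T cells without the antigen receptor, and no unstimulated sample was analysed here. The genotypes were wildtype (WT), T-bet-/- (T-bet-null), STAT6-/- (STAT6-null) and T-bet-/- STAT6-/- (double-null), with 2 libraries each and 8 in all. T-bet is the factor of Th1 cells and STAT6 carries the signal of IL-4. Age, sex, the deleted exons, any pooling of animals and the animal behind each library were all not given in the sources used here. Hence the p-values cover the spread between libraries alone, which may be technical.

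Values are FPKM, fragments scaled to transcript length and library size, so levels of different genes can be compared. The table lists only genes above 0.1 FPKM in every library. Sequencing depth is not printed in it. From the steps of low values the deepest library was estimated at 1.215 times the depth of the shallowest. Tbx21, the T-bet gene, was at 30.8 and 31.6 FPKM in WT, 1.44 and 1.54 in T-bet-null cells, 101.9 and 92.1 in STAT6-null and 2.49 and 2.09 in double-null libraries. Stat6 was at 89.9 and 90.9 FPKM in WT, 88.8 and 89.8 in T-bet-null cells, 31.6 and 29.0 in STAT6-null and 29.6 and 26.9 in double-null libraries. Each targeted transcript was thus lower where the label names its loss, in every library. All 6 CD4 T cell markers were in the table, with summed levels of 1070 to 1490 FPKM over the 8 libraries. The listed CD8 marker, Cd8b1, B cell (4 of 5) and myeloid (2 of 7) markers summed to at most 5.6, 5.39 and 13.9 FPKM, while the 3 NK cell markers were not in the table, which shows only that each was not above 0.1 FPKM in every library. Of the 9 erythroid markers 2 were listed, with a sum of 224 to 442 FPKM in the WT and 2.63 to 7.48 in the mutant libraries. The sum of the 4 listed Y-linked genes ranged from 104 to 110 FPKM in WT and from 33.7 to 34.1 in T-bet-null libraries. It ranged from 37.3 to 43.2 FPKM in STAT6-null and from 29.5 to 67.9 in double-null libraries. The double-null libraries thus differed from each other, with each of the 4 genes higher in replicate 2 (Ddx3y at 16.2 and 36.6 FPKM). Library correlations on log2(FPKM + 1) were 0.9341 to 0.9536 between WT and mutant libraries and 0.9829 to 0.9888 between mutant genotypes. A difference in how WT cells were prepared and the loss of T-bet or STAT6 cannot be told apart in any comparison with WT.

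The sequences shown first are the 250 bases before the annotated start of Mxd4, Mxd1 and Mnt, the members that fell most against WT, that differed most among the mutants and rose most in double-null cells against WT. They are from RefSeq on GRCm38.p6, the assembly behind mm10, read 5′ to 3′ on the gene's strand, with canonical E-boxes in capitals. Mxd4 is on the minus strand at chr5:34187711-34187960, Mxd1 on the minus strand at chr6:86669160-86669409 and Mnt on the plus strand at chr11:74830674-74830923.
Mxd4: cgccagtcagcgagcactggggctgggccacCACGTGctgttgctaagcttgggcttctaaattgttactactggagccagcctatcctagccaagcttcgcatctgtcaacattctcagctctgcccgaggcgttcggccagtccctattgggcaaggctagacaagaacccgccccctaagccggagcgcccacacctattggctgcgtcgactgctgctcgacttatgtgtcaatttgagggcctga
Mxd1: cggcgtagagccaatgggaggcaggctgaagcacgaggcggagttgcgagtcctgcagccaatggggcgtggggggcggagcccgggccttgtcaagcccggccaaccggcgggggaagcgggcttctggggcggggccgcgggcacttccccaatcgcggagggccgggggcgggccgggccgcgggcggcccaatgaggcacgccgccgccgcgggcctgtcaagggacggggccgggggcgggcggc
Mnt: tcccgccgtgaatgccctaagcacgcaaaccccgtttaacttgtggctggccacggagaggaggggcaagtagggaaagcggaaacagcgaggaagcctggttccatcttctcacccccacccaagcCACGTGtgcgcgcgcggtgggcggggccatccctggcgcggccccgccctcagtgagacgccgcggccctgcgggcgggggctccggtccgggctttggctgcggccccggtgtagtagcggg

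The canonical E-box CACGTG, which reads the same on both strands, is the sequence that MYC-MAX and MXD-MAX dimers bind. It begins 219 bases before the start of Mxd4, 123 bases before that of Mnt and 40 bases before that of Mlx. It was not found in the windows of Max, Mxd1, Mxi1 and Mga, and Myc had no entry. Of all 32851 promoter windows of the same length, 6.02% held it. The T-box sequence AGGTGTGA (1.12% of windows), searched on both strands, was in none of the members' windows. The palindromic STAT6 sequence, TTC and GAA with 4 bases of any kind between them (5.85%), and the FOXO sequence GTAAACA (3.17%, both strands) were each in 1 of the 3 Mxi1 windows and in no other member's. None of these motifs contains another, and a match of letters says nothing about binding. Each window precedes the start of 1 RefSeq transcript. The windows of all these members but Mxd4 overlap the gene spans printed with the values, which begin at another annotated start.

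**Figure D1:**
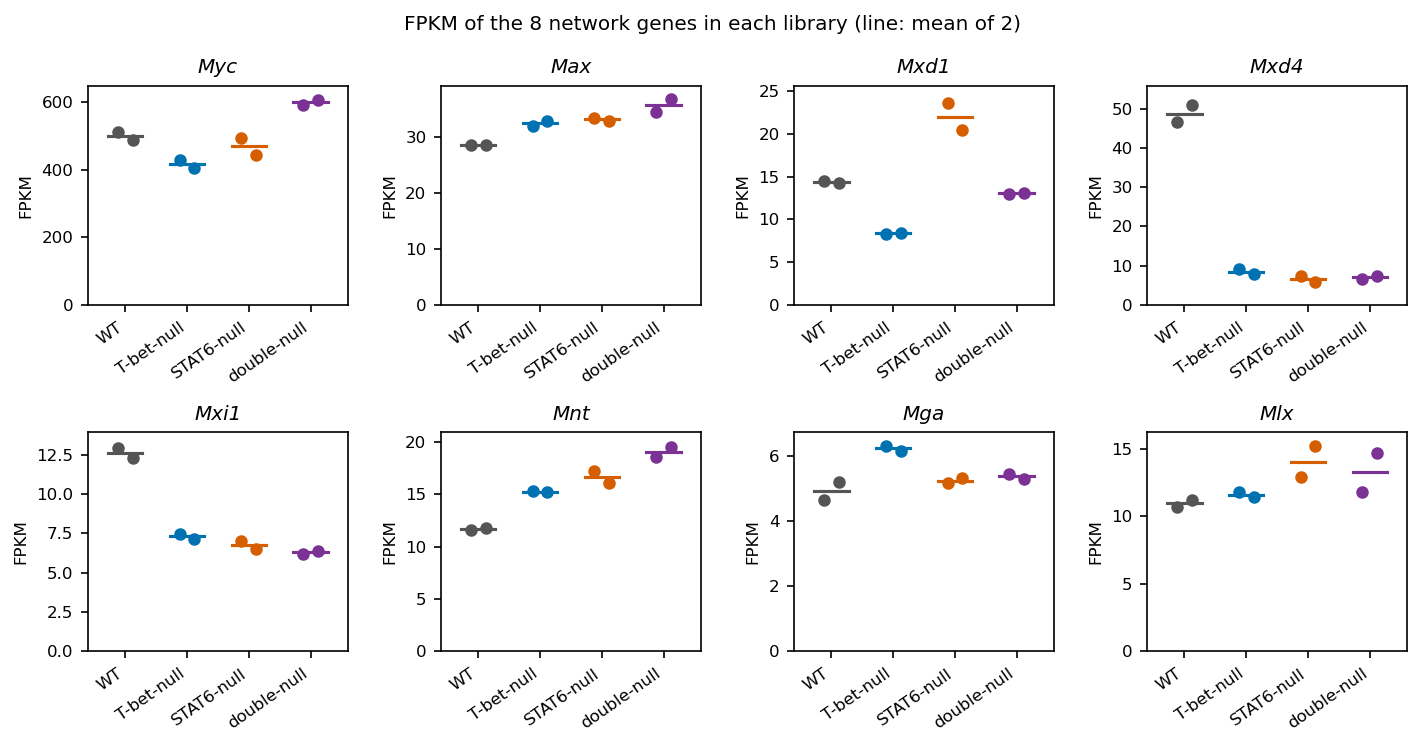
FPKM (vertical axes from 0) of each member in the 8 libraries, with dots for libraries and lines for the mean of 2. Mxd4 and Mxi1 are highest in both WT libraries, Mxd1 is lowest in T-bet-null (8.29 and 8.42) and highest in STAT6-null libraries (20.4 and 23.6), and Myc is highest in double-null libraries (591.3 and 606.9).

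Myc, the activating member (mm10 chromosome 15, 61985341 to 61990361), was by far the most abundant, at 499.1 ± 15.8 FPKM in WT (mean ± SD, n = 2), and ranked 162 of 10281 genes by mean level. Its libraries stood at 510.3 and 488.0 FPKM in WT, 428.6 and 405.6 in T-bet-null cells, 495.3 and 445.1 in STAT6-null and 591.3 and 606.9 in double-null samples. The double-null libraries were highest and the T-bet-null libraries lowest, and only the WT and STAT6-null libraries overlapped. Among the mutants, Myc rose in double-null against T-bet-null cells by 0.52 ± 0.07 (difference of log2(FPKM + 1) ± SE, limma adjusted p = 0.000769), a ratio of mean FPKM of 1.44. Against STAT6-null cells it rose by 0.35 ± 0.07 (limma adjusted p = 0.00784, ratio 1.27). That call was lost without STAT6-null replicate 2 (0.27, limma adjusted p = 0.0666), and the adjusted p ranged from 0.00465 to 0.0666 over 17 alternatives. STAT6-null and T-bet-null cells differed by 0.17 (95% interval 0.02 to 0.32, limma adjusted p = 0.0912), which did not pass. Against WT the Myc level was -0.26 ± 0.07 in T-bet-null cells, -0.09 ± 0.07 in STAT6-null and 0.26 ± 0.07 in double-null samples. Over the 17 alternatives the STAT6-null value ranged from -0.21 to -0.01 and the double-null value from 0.11 to 0.30. These 3 differences share the same 2 WT libraries.

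Max, the shared partner (chromosome 12, 76937269 to 76962323), was at 28.6 and 28.6 FPKM in WT, 32.0 and 32.9 in T-bet-null cells, 33.4 and 32.9 in STAT6-null and 34.4 and 36.8 in double-null libraries. Both WT libraries lay below all 6 mutant libraries, and the T-bet-null and STAT6-null libraries overlapped. No difference of Max between mutants passed the test. The double-null minus T-bet-null difference was 0.13 (95% interval 0.01 to 0.25), and the double-null minus STAT6-null difference 0.10 (-0.02 to 0.22). The Myc level was 17.8 and 17.1 times that of Max in WT, 13.4 and 12.3 in T-bet-null cells, 14.8 and 13.5 in STAT6-null and 17.2 and 16.5 times in double-null libraries.

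Mxd4 (chromosome 5, 34176580 to 34187710) encodes a repressor that pairs with MAX. It stood at 46.6 and 50.9 FPKM in WT, 9.07 and 7.84 in T-bet-null cells, 7.31 and 5.84 in STAT6-null and 6.70 and 7.38 in double-null libraries. The WT libraries lay far above all others and the double-null libraries overlapped those of STAT6-null cells. Against WT the difference was -2.40 ± 0.11 in T-bet-null cells, -2.72 ± 0.11 in STAT6-null and -2.63 ± 0.11 in double-null samples. The WT mean was 5.76, 7.41 and 6.92 times that of the mutant in this order. Counted from the largest fall, Mxd4 ranked 7, 3 and 11 among the 10281 genes. These values are the ones that chose the set.

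Among the mutants, Mxd4 did not pass in any comparison. It was lower in STAT6-null than in T-bet-null cells by 0.32 on the log2 scale (-0.32, 95% interval -0.56 to -0.08, limma adjusted p = 0.0509), and 6 of 17 alternatives called it. The double-null minus T-bet-null difference was -0.23 (-0.47 to 0.01, limma adjusted p = 0.124), and that from STAT6-null cells 0.09 (-0.15 to 0.33, limma adjusted p = 0.59). In bulk RNA, fewer cells that make Mxd4 and less Mxd4 RNA per cell cannot be told apart. Exons of the opposite-strand gene Gm42846 cover 13.2% of the exonic bases of Mxd4 in the GENCODE annotation. Use of strand in the counting was not given in the sources used here. Erythroid and Y-linked transcripts given above were also highest in the WT libraries, and their part in the Mxd4 difference was not tested.

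Mxi1, a second repressor of the MXD family (chromosome 19, 53310128 to 53373293), was at 12.9 and 12.3 FPKM in WT and 7.47 and 7.13 in T-bet-null libraries. It was at 6.99 and 6.50 FPKM in STAT6-null and 6.20 and 6.40 in double-null libraries. No pair of genotypes overlapped, and the order was WT, T-bet-null, then STAT6-null and then double-null from high to low. Against WT the differences were -0.71 ± 0.07, -0.81 ± 0.07 and -0.90 ± 0.07 in T-bet-null, then STAT6-null and then double-null cells. Between mutants none passed, with the widest difference in double-null against T-bet-null cells (-0.19, 95% interval -0.33 to -0.04, limma adjusted p = 0.0581). Exons of Gm10197 cover 2.91% of its exonic bases.

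Mxd1, the MXD repressor first known as MAD1 (chromosome 6, 86647044 to 86669234), followed another order. Its libraries stood at 14.5 and 14.3 FPKM in WT, 8.29 and 8.42 in T-bet-null cells, 23.6 and 20.4 in STAT6-null and 13.0 and 13.1 in double-null samples. No pair of genotypes overlapped, and the double-null libraries lay between those of the single mutants. Mxd1 was 2.64 times higher in STAT6-null than in T-bet-null cells by mean FPKM (1.30 ± 0.07, limma adjusted p = 5.21e-06), a rise that ranked 75 of 10281 genes. It was higher in double-null cells than in T-bet-null cells (0.59 ± 0.07, limma adjusted p = 0.00057) and lower in double-null cells than in STAT6-null cells (-0.71 ± 0.07, limma adjusted p = 0.000336). All 3 calls held under each of the 17 alternatives, with adjusted p up to 0.00679. Against WT, Mxd1 was at -0.72 ± 0.07 in T-bet-null cells, 0.57 ± 0.07 in STAT6-null and -0.13 ± 0.07 in double-null samples (-0.21 to -0.10 over the alternatives). The effect of losing STAT6 in T-bet-null cells minus that in T-bet-sufficient cells was 0.01 ± 0.10, given without a test because it draws on WT. Lyz2, a listed myeloid marker, was also lowest in T-bet-null (2.49 and 3.59 FPKM) and highest in STAT6-null libraries (13.1 and 13.6). The other listed myeloid marker, Cd14, was lowest in STAT6-null libraries (0.345 and 0.331). Their part in the Mxd1 differences was not tested. In bulk RNA, a change in cell mixture and in Mxd1 RNA per cell cannot be told apart.

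**Figure D2:**
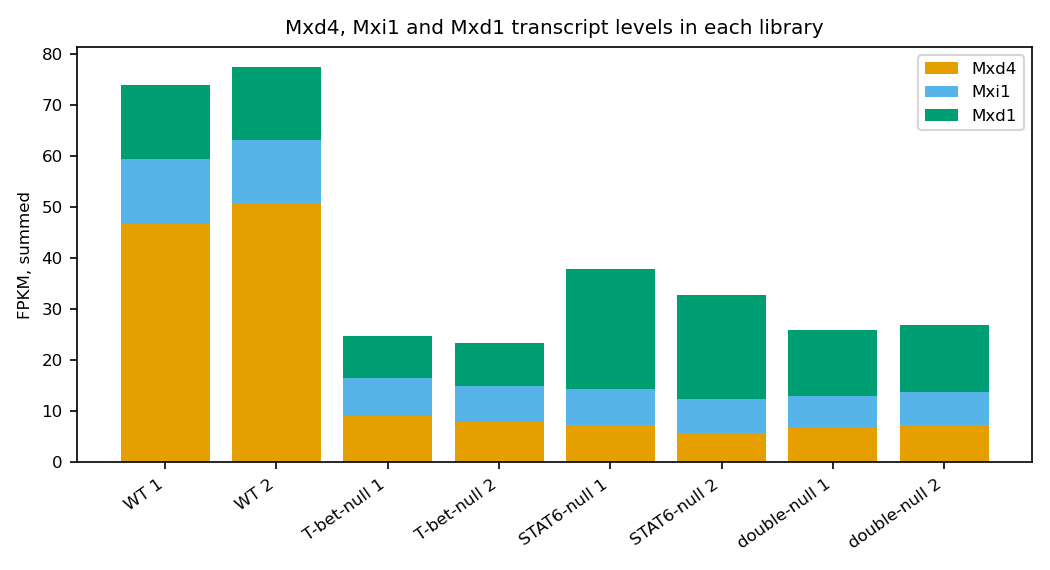
Summed FPKM (vertical axis from 0) of Mxd4, Mxi1 and Mxd1 in each of the 8 libraries. The WT bars reach 74.0 and 77.6 with Mxd4 the largest block, the mutant bars reach 23.4 to 37.9, and Mxd1 is the largest block in STAT6-null and double-null libraries.

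The sum of Mxd4, Mxi1 and Mxd1 was 74.0 and 77.6 FPKM in WT, 24.8 and 23.4 in T-bet-null cells, 37.9 and 32.8 in STAT6-null and 25.9 and 26.9 in double-null libraries. Mxd4 made up 62.9% and 65.6% of this sum in WT libraries, 36.5% and 33.5% in T-bet-null cells, 19.3% and 17.8% in STAT6-null and 25.8% and 27.5% in double-null libraries. Mxd1 made up 62.3% of it in each STAT6-null library against 19.6% and 18.5% in WT. The most abundant of the 3 was thus Mxd4 in WT and Mxd1 in STAT6-null and double-null libraries, and in T-bet-null libraries the first place changed between replicates. Myc FPKM was 6.90 and 6.29 times the sum in WT, 17.3 and 17.3 times in T-bet-null cells, 13.1 and 13.6 times in STAT6-null and 22.8 and 22.6 times in double-null libraries. These ratios are of transcripts and rest on the fall of Mxd4 that chose the set. They also leave out Mnt and Mga, members that pair with MAX as well. With Mnt and Mga added, the sum was 90.3 and 94.6 FPKM in WT and 44.7 to 60.3 in the mutant libraries. Myc relative to this wider sum thus differed less between WT and mutant libraries than the ratios above. Mxd3, the other gene of the family, was named after its values were seen and is in neither sum. It was at 12.2 and 12.2 FPKM in WT and at means of 9.865, 9.755 and 12.5 in T-bet-null, then STAT6-null and then double-null cells.

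Mnt, a repressor that pairs with MAX in both resting and growing cells (chromosome 11, 74830806 to 74845725), moved the other way. It was at 11.6 and 11.8 FPKM in WT, 15.3 and 15.2 in T-bet-null cells, 17.2 and 16.1 in STAT6-null and 18.6 and 19.5 in double-null libraries. No pair of genotypes overlapped, and the order was the reverse of that of Mxi1. Mnt rose in double-null against T-bet-null cells (0.30 ± 0.06, limma adjusted p = 0.0055) and did so under all 17 alternatives. The double-null minus STAT6-null difference was 0.19 (95% interval 0.05 to 0.32, limma adjusted p = 0.0544), and that between the single mutants 0.12 (-0.02 to 0.25, limma adjusted p = 0.179). Against WT, Mnt was higher by 0.36 ± 0.06, 0.47 ± 0.06 and 0.66 ± 0.06 in T-bet-null, then STAT6-null and then double-null cells.

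Mga, a large protein that pairs with MAX inside a Polycomb complex (chromosome 2, 119872503 to 119970129), was the least abundant member. It was at 4.65 and 5.19 FPKM in WT, 6.32 and 6.15 in T-bet-null cells, 5.17 and 5.32 in STAT6-null and 5.46 and 5.29 in double-null libraries. The T-bet-null libraries were highest, while STAT6-null libraries overlapped those of WT and of double-null cells. The STAT6-null minus T-bet-null difference of Mga was -0.21 (95% interval -0.37 to -0.05, limma adjusted p = 0.0533) and was called by 4 of 17 alternatives. Mlx (chromosome 11, 101086707 to 101092207) was at 10.7 and 11.2 FPKM in WT, 11.8 and 11.4 in T-bet-null cells, 12.9 and 15.2 in STAT6-null and 11.8 and 14.7 in double-null libraries. Its replicates differed widely in STAT6-null and double-null cells, and no difference of Mlx between mutants passed (widest 0.26, 95% interval 0.02 to 0.49, limma adjusted p = 0.1). Exons of Psmc3ip on the other strand cover 19.4% of the exonic bases of Mlx.

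**Figure D3:**
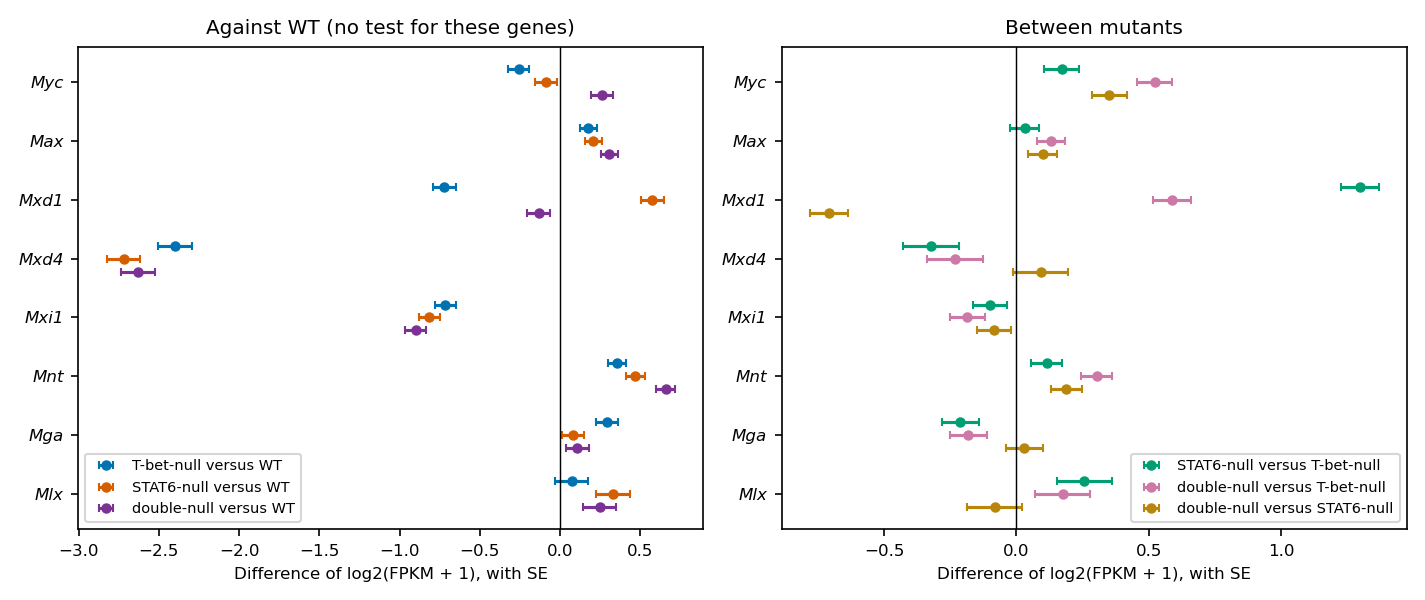
Difference of log2(FPKM + 1) (horizontal axes, bars are SE) for each member, against WT on the left and between mutants on the right, each point from 2 libraries per genotype. Mxd4 lies between -2.40 and -2.72 in the left panel, and Mxd1 spans -0.71 to 1.30 in the right panel.

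Over the 8 members, 3 were called higher and 0 lower in double-null against T-bet-null cells (Myc, Mxd1 and Mnt), where 32.6% of all genes tested were called. In double-null against STAT6-null cells 1 was called higher (Myc) and 1 lower (Mxd1), where 19.9% of all genes were called. In STAT6-null against T-bet-null cells 1 was called higher (Mxd1), where 27.2% were called. Libraries of the compared genotypes did not overlap for 8, 5 and 7 of the 8 members in these comparisons, against 69.2%, 60.6% and 69.9% of all genes. These counts over only 8 genes were not tested against the background and are no result about the set as a whole. Leaving out a library of either compared genotype lowered the counts over all genes. The lowest counts, in the order of the comparisons, were 1631 without T-bet-null replicate 2 (3351 with all libraries), 840 without STAT6-null replicate 1 (2044) and 1443 without T-bet-null replicate 2 (2799), each from a fit of its own. Against WT the libraries did not overlap for 8 members in T-bet-null cells, 6 in STAT6-null and 8 in double-null samples, against 86.6%, 85.7% and 84.6% of all genes. The members' calls were not used there, and 70.6%, 71% and 73% of all genes were called in T-bet-null, then STAT6-null and then double-null cells.

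Genes that MYC is known to activate lay mostly higher in the mutants than in WT. Of 44 listed genes 43 were tested. In T-bet-null cells 36 rose and 4 fell (median 0.891, against -0.016 over all genes tested), in STAT6-null cells 35 rose and 2 fell (median 0.793, all genes -0.009), and in double-null cells 39 rose and 3 fell (median 0.984, all genes -0.005). Over all genes tested, 34.2%, 34.9% and 36.3% were called higher in these comparisons, which share the WT libraries. Srm, which encodes spermidine synthase, was at 22.8 and 21.1 FPKM in WT and 102.7 and 118.1 in double-null libraries (2.28, limma adjusted p = 6.66e-08). Its levels did not overlap between WT and any mutant genotype, with 96.7 and 87.3 FPKM in T-bet-null and 86.2 and 83.9 in STAT6-null libraries. Polr1b, a subunit of RNA polymerase I, which makes ribosomal RNA, was at 3.81 and 3.75 FPKM in WT, and at 22.6 and 19.4 in double-null libraries (2.20, limma adjusted p = 6.02e-08). Dkc1, a component of ribosomal RNA modification, rose by 1.93 and Hk2, the first enzyme of glycolysis, by 1.87 in double-null cells (limma adjusted p = 3.16e-08 and 8.75e-08). Genes named from this and the later lists were picked for a large double-null difference from WT or a large difference between the single mutants. The p-values of those differences are therefore no separate support. The lists themselves were chosen with earlier results of these data known.

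Between the mutants the same list differed less. In double-null against STAT6-null cells 23 of 43 MYC-activated genes rose and 0 fell (median 0.238, all genes 0.014), where 11.3% of all genes were called higher and 8.63% lower. It was 12 higher without STAT6-null replicate 1 and 12 without STAT6-null replicate 2, when 8.19% and 10.1% of all genes were called. Dkc1 was at 65.3 and 67.8 FPKM in double-null, 46.5 and 47.5 in STAT6-null and 55.6 and 55.7 in T-bet-null libraries, and rose by 0.49 against STAT6-null cells (limma adjusted p = 0.000321). In double-null against T-bet-null cells 17 rose and 1 fell (median 0.11, all genes 0.009), where 16.4% were called higher. It was 10 without T-bet-null replicate 1, 8 without T-bet-null replicate 2, 11 without double-null replicate 2 and 7 with quantile normalization. In STAT6-null against T-bet-null cells 4 rose and 14 fell (median -0.124, all genes -0.025), where 12.3% were called higher and 14.9% lower. It was 6 lower without T-bet-null replicate 1, 3 without T-bet-null replicate 2, 3 without STAT6-null replicate 1 and 7 without STAT6-null replicate 2, with 4 higher in each of these settings, so the balance of falls over rises did not hold without T-bet-null replicate 2 or STAT6-null replicate 1. Cad, an enzyme of pyrimidine synthesis, was at 8.80 and 8.60 FPKM in T-bet-null and 5.92 and 5.53 in STAT6-null libraries (-0.53, limma adjusted p = 0.000895), while Ldha, which makes lactate, was at 297.9 and 279.3 FPKM in T-bet-null and 414.0 and 425.1 in STAT6-null libraries (0.54, limma adjusted p = 0.00027). These single genes did not overlap between the libraries of the genotypes named.

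Of 6 genes known to be repressed by MYC, 1 rose and 4 fell in T-bet-null cells, 2 and 2 in STAT6-null and 2 and 3 in double-null samples against WT. The count of rises was 1 without STAT6-null replicate 1 and 1 without double-null replicate 2 in the latter comparisons. Over all genes tested 34.2%, 34.9% and 36.3% were called higher and 36.3%, 36.1% and 36.7% lower. With a filter at 5 FPKM, 4 genes were tested and 0, 1 and 1 rose. They went both ways: the cell cycle inhibitor Cdkn1b fell from 48.58 to 27.18 FPKM in double-null cells (-0.82, limma adjusted p = 1.27e-06), and Cdkn2b, an inhibitor of the same process, rose from 1.44 to 5.45 (1.40, limma adjusted p = 1.44e-06). Cdkn2b was also higher in double-null cells than in T-bet-null (0.90, limma adjusted p = 0.000234) and in STAT6-null cells (0.67, limma adjusted p = 0.0016). Ndrg1, a stress-response gene, was higher in STAT6-null than in T-bet-null cells (0.54, limma adjusted p = 0.000601).

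Of 5 targets of MLX and MondoA, 3 were in the table, and all 3 fell in each mutant against WT, where 36.3%, 36.1% and 36.7% of all genes were called lower. With median-of-ratios scaling 2 of the 3 were called lower in STAT6-null cells. The count in T-bet-null and in STAT6-null cells also dropped when some single libraries were left out. Txnip, an inhibitor of glucose uptake, stood at 30.0 and 27.8 FPKM in WT, 12.8 and 13.3 in T-bet-null cells, 16.9 and 14.5 in STAT6-null and 12.5 and 11.6 in double-null libraries. The WT libraries lay above all others, with -1.09, -0.84 and -1.20 against WT in this order. Arrdc4, a relative of Txnip, was at -0.34, -0.21 and -0.54, and Klf10 at -0.22, -0.31 and -0.47. For Arrdc4 the limma adjusted p was 0.00402, 0.0372 and 0.000228 in this order. Mlxip, which encodes MondoA itself and was named after its values were seen, was at 25.2 and 25.0 FPKM in T-bet-null cells. Its mean was 17.97 FPKM in WT, 19.46 in STAT6-null and 19.07 in double-null samples, and it was lower in double-null cells than in T-bet-null cells (-0.38, limma adjusted p = 0.00218).

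Among 22 relatives and cofactors of MYC and MLX, 19 were tested, with 7 higher and 5 lower in T-bet-null cells, 4 and 8 in STAT6-null and 6 and 5 in double-null samples against WT. In all, 63.2%, 63.2% and 57.9% of the list were called, against 70.6%, 71% and 73% of all genes tested. Ruvbl1 (1.46) and Ruvbl2 (1.48), paired ATPases that bind MYC, and Wdr5 (1.14), which helps MYC to chromatin, rose in double-null against WT cells, while Mycbp2 fell (-0.92). In STAT6-null against T-bet-null cells 0 rose and 9 fell, where 12.3% of all genes were called higher and 14.9% lower. Without T-bet-null replicate 2, 5 fell and 14.1% of all genes were called in either direction. The largest falls there were those of Sap30 (-0.63, limma adjusted p = 0.000822), a subunit of the SIN3 repressor that MXD proteins recruit, and Trrap (-0.44, limma adjusted p = 0.000958), a coactivator of MYC. Of 12 tested genes of MYC turnover, 6 rose and 1 fell in T-bet-null cells, 5 rose and 4 fell in STAT6-null and 7 rose and 4 fell in double-null samples against WT. These are 58.3%, 75% and 91.7% of the list, against 70.6%, 71% and 73% of all genes. With quantile normalization 2 fell in T-bet-null cells. Fbxw7, the ubiquitin ligase subunit that marks MYC for destruction, was at 6.84 FPKM in WT and 14.2, 11.71 and 11.57 FPKM in T-bet-null, then STAT6-null and then double-null cells. The rise was 0.96, 0.70 and 0.68 in this order (limma adjusted p = 8.46e-06, 5.16e-05 and 5.23e-05). Aurka, a mitotic kinase that can shield MYC proteins from FBXW7, was higher in double-null cells than in STAT6-null cells (0.81, limma adjusted p = 0.00108).

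The 12 genes of the MGA complex went both ways against WT, with 5 higher and 5 lower in T-bet-null cells, 4 and 7 in STAT6-null and 4 and 5 in double-null samples. The share called was 83.3%, 91.7% and 75% of the list, against the same 70.6%, 71% and 73% of all genes. Pcgf6, the Polycomb subunit that defines this complex, was at 3.82 and 3.41 FPKM in WT, 10.8 and 11.8 in T-bet-null cells, 7.71 and 7.77 in STAT6-null and 8.75 and 9.22 in double-null libraries. Its genotypes did not overlap, and it was highest in the T-bet-null libraries, as Mga was. Pcgf6 was lower in STAT6-null than in T-bet-null cells (-0.49, limma adjusted p = 0.00152) and in double-null cells than in T-bet-null cells (-0.30, limma adjusted p = 0.0154). Hdac1 (-0.91) and Cbx3 (-0.81), shared with other repressor complexes, fell in double-null against WT cells.

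Genes of FOXO factors and of T cell quiescence, a program in which MXD genes are also known, lay mostly lower in the mutants. Of 22 tested genes, 15 fell and 3 rose in T-bet-null (median -0.716), 18 fell and 3 rose in STAT6-null (median -0.733) and 16 fell and 3 rose in double-null cells (median -0.769) against WT. Over all genes tested 36.3%, 36.1% and 36.7% were called lower. Ccr7, the receptor for entry into lymph nodes, was at 142.9 and 121.7 FPKM in WT, 50.2 and 45.6 in T-bet-null cells, 41.6 and 33.2 in STAT6-null and 19.1 and 18.5 in double-null libraries. No pair of genotypes overlapped, and double-null cells were lower than T-bet-null (-1.30, limma adjusted p = 8.93e-05) and STAT6-null cells (-0.95, limma adjusted p = 0.000674). Tsc22d3 (-1.83), a glucocorticoid-induced gene, Btg2 (-1.37), an antiproliferative gene, and Tcf7 (-1.30), the factor TCF1, fell in double-null against WT cells. Slfn2, a gene of quiescence, rose instead (369.3 to 740.3 FPKM, 1.00, limma adjusted p = 4.96e-07), and it was higher in STAT6-null than in T-bet-null cells (0.66, limma adjusted p = 4.92e-05).

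**Figure D4:**
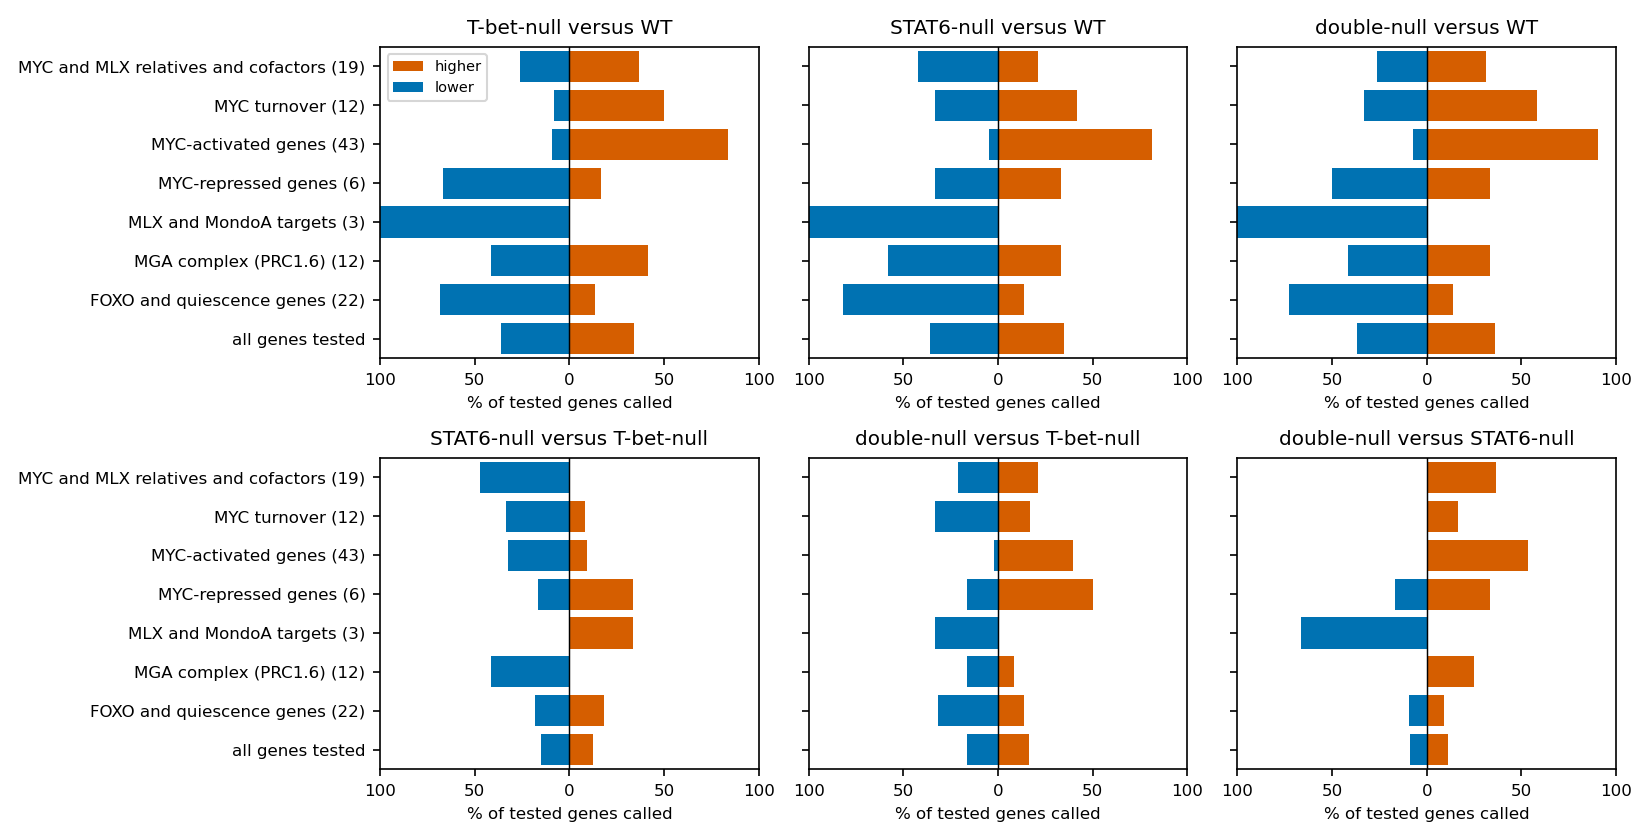
Percent of the tested genes of each list called higher (right) or lower (left) in the 6 comparisons at an adjusted p under 0.05, with the number tested in brackets and all 10281 genes at the bottom. MYC-activated genes lie mostly to the right in the 3 comparisons with WT (36, 35 and 39 of 43) and FOXO and quiescence genes mostly to the left (15, 18 and 16 of 22).

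The 5 genes most like Mxd4 over the 8 libraries, by the root mean square difference of centred log2(FPKM + 1), were Arl13b (0.1543), Evl (0.2089), Tcp11l2 (0.2476), Klf4 (0.3012) and Fosb (0.3081). Arl13b, a GTPase of cilia, was at 27.6 and 27.2 FPKM in WT and 3.39 to 4.86 in the mutant libraries. Klf4, a factor of quiescence, was at 46.1 and 40.4 FPKM in WT and 7.25 to 13.5 in mutant libraries. All 5 had WT libraries far above the mutant ones, which is the split that dominates this measure. The 5 most like Myc were Mtss1 (0.0395), Snhg10 (0.0628), Cox6a1 (0.0694), Hspa5 (0.0737) and Cks2 (0.0745). Hspa5, a chaperone of the endoplasmic reticulum, was at 658.2 and 644.3 FPKM in WT, 546.2 and 553.2 in T-bet-null cells, 631.7 and 647.3 in STAT6-null and 784.4 and 733.2 in double-null libraries. Like Myc it was lowest in T-bet-null and highest in double-null libraries. For Mxd1, added after its values were seen, the nearest genes were Hk1 (0.1127), Fcrl1 (0.1150), Gbp3 (0.1451), Ctla4 (0.1483) and Vav1 (0.1494). Hk1, a hexokinase, was at 25.0 and 25.2 FPKM in WT, 18.7 and 18.3 in T-bet-null cells, 46.9 and 41.6 in STAT6-null and 27.0 and 26.5 in double-null libraries. It was lowest in T-bet-null and highest in STAT6-null libraries, as Mxd1 was.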

How the data were processed

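RNA-seq of 8 libraries, 2 for each of 4 genotypes, was deposited by the authors as 1 table of FPKM values. Cufflinks and the build mm10 are named, per the submitters' processing notes, and the table's name gives RefSeq as the annotation; the aligner, tool versions and strand setting were not given in the sources used here. Of 11906 lines, 65 repeated a symbol and were set aside in favour of the line with the highest mean, and 17 carried names turned into dates. Genes with at least 1 FPKM in at least 2 libraries (10281) entered 1 fit of log2(FPKM + 1) with limma 3.58.1 in R 4.3.3, with 1 coefficient per genotype, 4 residual degrees of freedom, an intensity trend and two-sided tests. P-values were adjusted by Benjamini-Hochberg over all genes within each of 6 comparisons and called under 0.05. A fold on this scale understates the change of low genes. Relative depth was read from 503 genes under 0.5 FPKM, whose ratios between libraries fall on simple fractions. The members and lists were chosen with earlier results of these data known. Named genes were the members, from each list up to 4 genes by the size of the double-null difference from WT and up to 2 by that between the single mutants, and the 5 genes nearest to Mxd4 and Myc. Some genes that this rule names are not reported here. Alternatives covered the pseudocount, filter, scaling, trend, genotypes fitted, a replicate block and each library left out. The fit was tested on simulated data. Other tools were Python 3.11.15, pandas 2.3.3 and SciPy 1.17.1. Coordinates count from 1 and span the gene.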

Additional observations from a re-analysis of the deposited data

Results flagged for a closer look

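Myc was the one member whose libraries moved in opposite directions on losing T-bet with and without STAT6. With STAT6 present, both T-bet-null libraries (428.6 and 405.6 FPKM) lay below both WT libraries (510.3 and 488.0). Without STAT6, both double-null libraries (591.3 and 606.9) lay above both STAT6-null libraries (495.3 and 445.1). The difference between these effects was 0.61 ± 0.10 on the log2(FPKM + 1) scale (estimate ± SE from the limma fit). It was larger for Mxd4 (2.49 ± 0.15) and similar for Mxi1 (0.63 ± 0.09), without opposite directions. For the other members it ranged from -0.26 (Mga) to 0.01 (Mxd1). None of these was tested, because they draw on the WT libraries that were used to choose the genes. In them, the preparation of WT cells and the loss of T-bet or STAT6 cannot be told apart.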

How the results depend on the processing

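Of the 6 counts of called genes, those between mutants moved by over 1.5 times when 1 library of a compared genotype was left out, except without double-null replicate 1. Such a genotype has 1 sample, assumed to vary like the others. With each library left out in turn, the count ranged from 1631 to 3308 (3351 with all) in double-null versus T-bet-null, from 840 to 2074 (2044) in double-null versus STAT6-null, and from 1443 to 3084 (2799) in STAT6-null versus T-bet-null. The counts against WT stayed within 1.5 times under every alternative run. Of the member results between mutants under alternatives, 388 kept their direction and side of the threshold, 16 came to pass it and 1, Myc in double-null versus STAT6-null, no longer did. The 16 were Mxd4 (6), Mga (4) and Mlx (3) in STAT6-null versus T-bet-null, and Mlx in double-null versus T-bet-null, Mnt in double-null versus STAT6-null and Myc in STAT6-null versus T-bet-null (1 each). The sign of 3 uncalled results changed: with each library left out, Mxd4 in double-null versus STAT6-null ranged from -0.0496 (without STAT6-null replicate 2) to 0.2315, and Mlx in double-null versus STAT6-null from -0.23 to 0.066 (above 0 without STAT6-null replicate 2 or double-null replicate 1). Against WT, 379 member values stayed within the replicate SD of the difference and 29 moved beyond it, under another pseudocount or scaling. Only the pseudocount and scaling settings could move a value that far. The other settings leave the difference unchanged or, with 1 library left out, shift it by no more than this SD. The split of 379 to 29 is therefore no measure of stability. With quantile normalization Myc was at -0.21 for the STAT6-null and 0.11 for the double-null genotype. Replicate numbers do not mark a shared origin in the labels, and deviations of same-numbered libraries correlated between genotypes at -0.0899 to 0.0907 across genes. With the replicate number as a block, 3091, 1836 and 2660 genes were called in the comparisons above, and 7151, 7219 and 7430 for the T-bet-null, the STAT6-null and the double-null genotype versus WT. Absolute depth is unknown, so no counting error is given.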
